A study of Mus musculus with 14 samples.

Results

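The collagen genes of the mouse hippocampus were compared between 7 naive mice labelled LPAR2-/- and 7 naive wild-type (WT) mice. A gene was taken as a collagen gene where its symbol consists of Col, a number, the letter a and a number, with nothing else. This rule was met by 44 of the 24421 genes counted, and 37 of them had enough counts to be tested. LPAR2 is a receptor for lysophosphatidic acid, a signalling lipid. The line labelled LPAR2-/- is described as lacking a part of exon 2 of Lpar2 in all cells. Its mice were homozygous, and each genotype had a breeding colony of its own. Every mouse carries the strain label 129.C57Bl6, the control colony is described as a mixture of C57BL/6 and 129/SvJ, and no mouse was treated. Because the colonies were kept apart, effects of the colony and of the deletion cannot be told apart. Every mouse is labelled as male and as 10 to 12 weeks old, whereas the description of the series calls the mice middle-aged or older, so the age is not known. The tissue is given as hippocampus in the labels and as dentate gyrus elsewhere in the study. Ribosomal RNA was removed before 1 library per mouse was sequenced.

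Collagens are proteins of the extracellular matrix whose alpha chains wind into a long helix in the endoplasmic reticulum and are then secreted. Fibrillar collagens are trimmed at both ends and packed into cross-linked fibrils. Type IV collagen forms the mesh of basement membranes, and type VIII the lattices found below some endothelia. Other types sit on the surface of fibrils, form beaded filaments or stay in the cell membrane. The parenchyma of the brain holds few fibrils. Its collagen is mainly type IV of the basement membranes around vessels, while fibrillar collagen is made by the fibroblasts of the meninges and of larger vessels, and some transmembrane collagens by neurons.

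The libraries held from 15434620 to 23258949 reads counted on genes, with like totals in both genotypes (p = 0.893 by exact permutation, two-sided). Levels in CPM are counts scaled to the total of the library as adjusted by TMM normalization. Lpar2 itself was detected at 1.51 to 3.22 CPM in WT mice and at 8.19 to 12.3 CPM in the mice labelled LPAR2-/-. Its count was thus higher in every mouse labelled LPAR2-/- (log2 fold change 2.01 ± 0.16, SE, adjusted p = 8.22e-07 in edgeR's quasi-likelihood test), which goes against the direction that a loss of the transcript would give. The count covers the whole gene and does not resolve the deleted part. The genotype is therefore given as a label throughout. Dentate granule neuron markers were detected in every mouse (6 of 6 genes, summed level 607 to 887 CPM), and so were markers of CA pyramidal neurons (6 of 6 genes, 138 to 327 CPM).

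The promoters of 4 collagen genes are shown because these genes stand for the patterns described here, namely the network collagens Col8a1 and Col8a2, which were higher in the mice labelled LPAR2-/-, the fibrillar Col1a2, whose level followed meningeal markers, and the basement membrane gene Col4a1, an abundant gene that did not pass the threshold. The windows were taken from RefSeq on GRCm38.p6, the assembly that mm10 represents, and run from 250 bases before to 50 bases after the annotated start, 5′ to 3′ on the strand of the gene. Capitals mark matches on either strand to the letters of a TATA box (TATAAA), of the CCAAT box, of a GC box (GGGCGG) or of an AP-1 motif (TGANTCA).
Col8a1, chr16:57754688-57754987, minus strand: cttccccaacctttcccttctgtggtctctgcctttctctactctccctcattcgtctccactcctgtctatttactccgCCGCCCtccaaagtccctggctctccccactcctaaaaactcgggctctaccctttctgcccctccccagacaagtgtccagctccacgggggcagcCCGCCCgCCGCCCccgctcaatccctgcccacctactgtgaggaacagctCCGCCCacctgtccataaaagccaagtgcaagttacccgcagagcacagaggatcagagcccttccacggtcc
Col8a2, chr4:126286544-126286843, plus strand: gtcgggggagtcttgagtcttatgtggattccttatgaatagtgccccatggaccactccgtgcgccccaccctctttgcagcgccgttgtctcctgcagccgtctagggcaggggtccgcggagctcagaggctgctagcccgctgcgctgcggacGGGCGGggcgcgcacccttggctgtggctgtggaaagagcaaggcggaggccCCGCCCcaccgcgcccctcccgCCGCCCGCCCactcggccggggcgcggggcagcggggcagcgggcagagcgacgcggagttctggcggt
Col1a2, chr6:4505368-4505667, plus strand: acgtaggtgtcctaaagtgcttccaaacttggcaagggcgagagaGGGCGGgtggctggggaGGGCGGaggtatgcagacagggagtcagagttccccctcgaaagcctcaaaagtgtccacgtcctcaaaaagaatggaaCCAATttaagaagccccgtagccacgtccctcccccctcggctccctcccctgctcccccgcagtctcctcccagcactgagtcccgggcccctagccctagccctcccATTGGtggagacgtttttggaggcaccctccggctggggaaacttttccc
Col4a1, chr8:11312777-11313076, minus strand: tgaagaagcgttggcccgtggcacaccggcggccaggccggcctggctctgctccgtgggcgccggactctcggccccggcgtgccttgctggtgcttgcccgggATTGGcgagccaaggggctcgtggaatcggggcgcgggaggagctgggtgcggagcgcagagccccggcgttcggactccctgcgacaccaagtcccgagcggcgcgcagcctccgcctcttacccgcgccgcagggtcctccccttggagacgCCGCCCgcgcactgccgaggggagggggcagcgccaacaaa

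Both network collagens had 4 matches to the GC box and none to the other motifs. Col1a2 had 2 CCAAT and 2 GC box matches, and Col4a1 had 1 of each. A window was found for 35 of the 44 collagen genes (38 windows), and 23 of these windows (60.5%) held a GC box, against 35.7% of all 32851 windows in the table. CCAAT was found in 34.2% of the collagen windows and 37.4% of all windows. TATAAA was found in 13.2% and 13.6%, and the AP-1 motif in 2.63% and 7.81%. The promoter of Col4a1 lies head to head with that of Col4a2, which encodes its partner chain. Their RefSeq windows share 78 bases. Reads were counted by strand, so that the genes of the pair were counted separately.

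Of the collagen expression in this tissue, measured over all 14 mice, 26.6% came from basement membrane genes, 21.8% from fibrillar, 18.4% from fibril-associated, 15.7% from beaded filament and 11.6% from transmembrane genes, and 0.443% from the network genes. Levels are compared between genes as TPM, which divide the counts by the counted length of the gene before they are scaled to the library. Col4a2 took 15.1% of the collagen TPM of the 14 mice, Col6a1 12.2%, Col4a1 10.2%, Col25a1 8.18% and Col11a2 6.17%. Col4a2 was detected at 58.9 ± 7.3 TPM (SD, n = 7) in WT mice and at 54.9 ± 6.1 TPM in the mice labelled LPAR2-/-. Col6a1, a chain of the beaded filaments of type VI collagen, followed with 50.4 ± 21.7 and 46.0 ± 27.99 TPM. Col25a1, a transmembrane collagen of neurons, was measured at 30.1 ± 2.4 and 32.0 ± 4.3 TPM. Between these genes the spread over mice differed. The coefficient of variation over WT mice was 7.93% for Col25a1, 12.7% for Col4a1 and 13.5% for Col4a2, but 42.9% for Col6a1 and 67.6% for the fibrillar gene Col1a2. Neighbours in the order of levels such as Col4a2 and Col6a1 were closer than this spread.

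**Figure D1:**
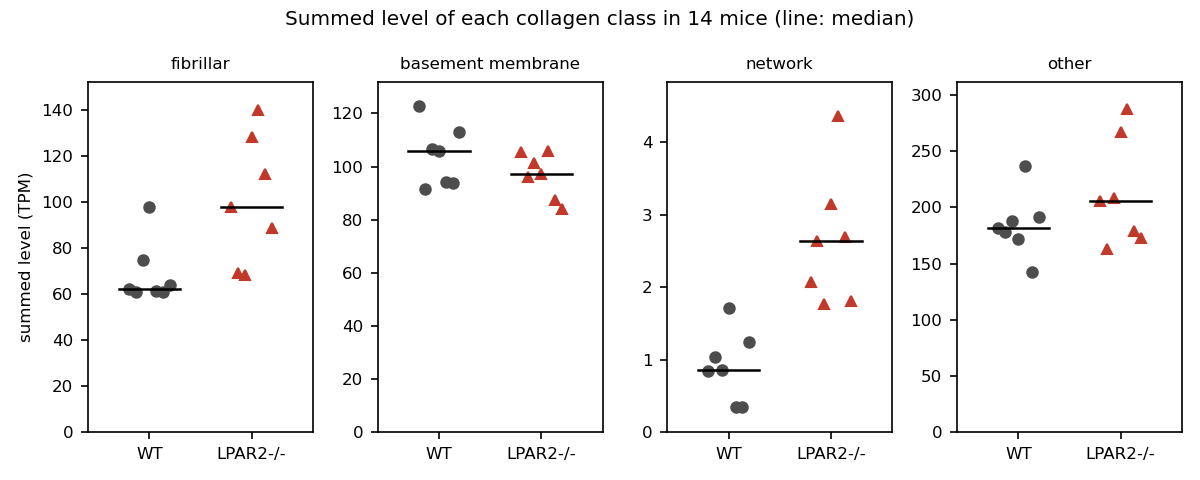
Summed TPM of the fibrillar, basement membrane, network and all other collagen genes in each WT mouse (circles) and each mouse labelled LPAR2-/- (triangles), with the median as a line. Network collagens were the least abundant class. Their lowest value in the mice labelled LPAR2-/- (mouse 3, 1.76 TPM) lay just above the highest in WT mice (mouse 4, 1.71 TPM), whereas the ranges of the other classes overlapped. Summed in CPM these values were 2.553 and 2.549. Since 1 count is 0.0433 CPM in the former mouse and 0.04997 CPM in the latter, the gap is smaller than 1 count. Each network gene on its own overlapped between the groups.

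The summed level of the fibrillar collagens ranged from 61.0 to 97.8 TPM (median 62.3) in WT mice and from 68.3 to 139.9 TPM (median 98.1) in the mice labelled LPAR2-/-. In WT mice, mouse 4 had the highest value and mouse 3 the next (74.7 TPM), and the other 5 lay between 61.0 and 63.9 TPM. The basement membrane class ranged from 91.7 to 123 TPM (median 106) and from 84.1 to 106 TPM (median 97.0). Network collagens ranged from 0.350 to 1.71 TPM (median 0.865) and from 1.76 to 4.36 TPM (median 2.64). All other collagens ranged from 143 to 236 TPM (median 181) and from 163 to 287 TPM (median 206). The sum over all 44 genes had a median of 369.6 TPM in WT mice (298 to 393) and of 381 TPM in the mice labelled LPAR2-/- (331 to 537), with overlapping ranges.

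The comparison of the genotypes asks which collagen genes differ between the mice labelled LPAR2-/- and WT mice. Higher expression in the mice labelled LPAR2-/- passed the threshold for 7 collagen genes, Col22a1, Col9a3, Col8a1, Col8a2, Col6a6, Col11a2 and Col16a1. None was lower at this threshold (edgeR, adjusted p under 0.05 over 14897 genes). With DESeq2 none was lower either. In edgeR, 16 collagen genes were higher at an unadjusted p under 0.05 (43.2%, beside 11.3% of all genes), and 1, Col4a1, was lower (2.70%, beside 11.1% of all genes). Of all genes tested, 494 were called higher (3.32%) and 515 lower (3.46%), so that 18.9% of the tested collagen genes stand beside 3.32% of all genes. With upper quartile normalization 616 genes were called higher and 377 lower, or 62.0% of the calls higher, where 9 collagen genes were higher and 0 lower. A log2 fold change above 0 was found for 32 of 37 collagen genes (86.5%) and for 51.1% of all genes. The median log2 fold change was 0.28 for collagen genes and 0.0029 for all genes. In bulk tissue a lower share of a cell type cannot be told apart from less RNA per cell, and the same holds for an increase.

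The filter asked for at least 0.506 CPM in 7 mice, and 32 of the 37 tested collagen genes met it in all 14 mice. Col8a1, Col8a2 and Col6a6 met it in 3, 4 and 4 WT mice, respectively, and passed mainly through the mice in which they were high. When no filter was applied, all 44 collagen genes were tested, and again 7 were called higher and 0 lower (2.24% of 20115 genes were called higher). Of the 44, 36 then had a log2 fold change above 0. The genes not tested with the filter were Col4a3, Col4a4, Col9a1, Col10a1, Col17a1, Col24a1 and Col28a1. They had at most 20 counts in any mouse.

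**Figure D2:**
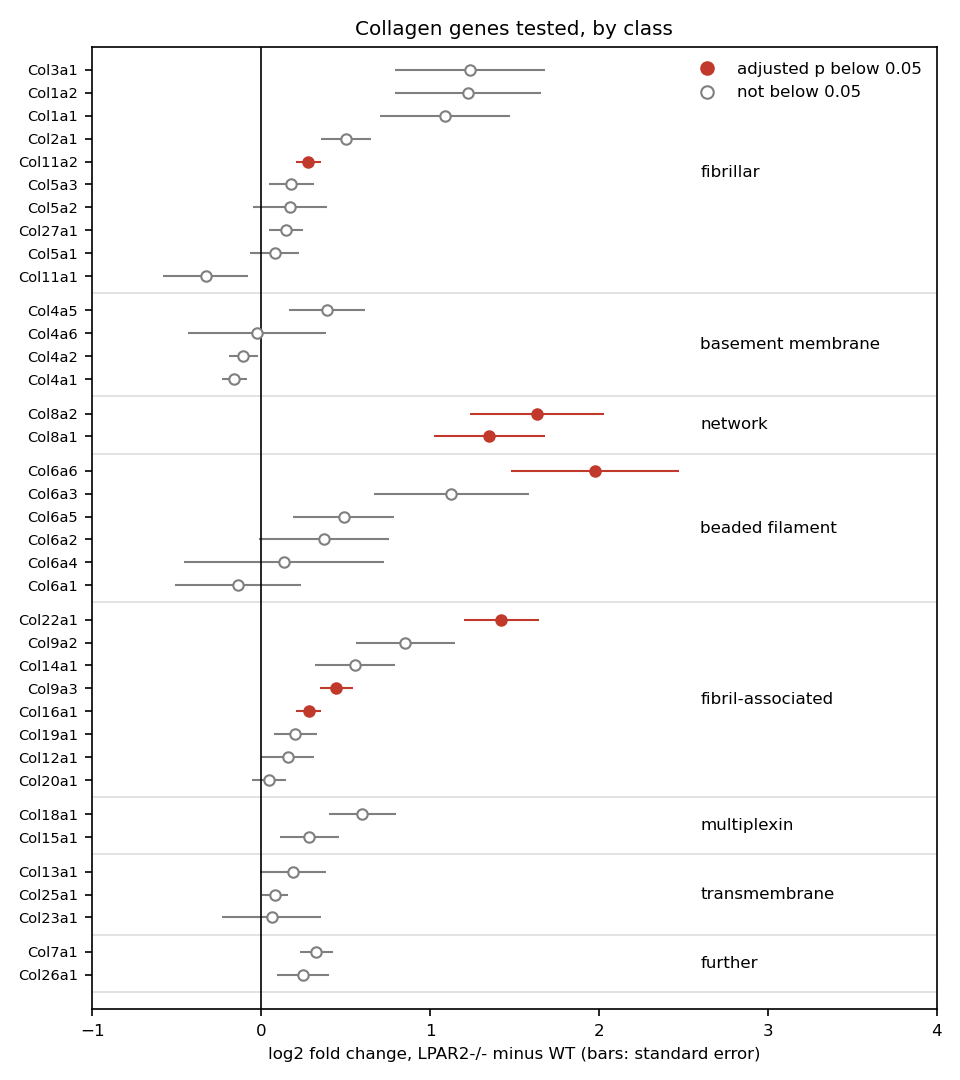
Log2 fold change (mice labelled LPAR2-/- minus WT) of the 37 collagen genes tested, grouped by class, with standard errors as bars and filled red points for an adjusted p below 0.05. Of the points, 32 lie to the right of 0, while Col4a1, Col4a2 and Col4a6 of the basement membrane class, Col6a1 and Col11a1 lie to the left.

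The network collagens were the class in which both members passed the threshold. Col8a1 and Col8a2 encode the short chains of type VIII collagen, which assemble into hexagonal lattices such as that of Descemet's membrane in the cornea. Col8a1 (chr16:57624256-57754737, mm10) was measured at 0.293 CPM in the lowest, 0.5004 CPM in the median and 1.25 CPM in the highest WT mouse, which are 6, 11 and 25 counts. In the mice labelled LPAR2-/- it was measured at 0.563, 1.84 and 2.79 CPM (13, 36 and 53 counts). The value of mouse 3 was low, while 6 of 7 mice labelled LPAR2-/- lay above every WT mouse. The log2 fold change was 1.35 ± 0.33 (SE, adjusted p = 0.0231), which is 2.55-fold with a 95% interval of 1.57 to 4.14. Col8a2 (chr4:126286794-126314330) was measured at 0.124, 0.520 and 1.34 CPM (2, 11 and 26 counts) in WT mice and at 1.15, 2.20 and 3.63 CPM (18, 43 and 69 counts) in the mice labelled LPAR2-/-. Here 5 of 7 mice labelled LPAR2-/- lay above every WT mouse, and 5 of 7 WT mice lay below every mouse labelled LPAR2-/-. For Col8a2 the log2 fold change was 1.64 ± 0.40 (adjusted p = 0.0235), which is 3.11-fold with a 95% interval of 1.73 to 5.58. Col8a1 lost its call when WT mouse 2 was left out (adjusted p = 0.0558), and Col8a2 kept it whichever of the 14 mice was left out. With the mouse number as a block in the model, both genes lost their calls (adjusted p = 0.0809 and 0.0701). Both counts are low, and neither gene was among those tested when at least 10 counts were required in every library.

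Among the fibril-associated collagens, 3 of 8 tested genes were higher. Col22a1, which encodes a collagen of tissue junctions such as that between muscle and tendon, showed the clearest separation. It was measured at 4.55, 5.33 and 7.42 CPM in the lowest, median and highest WT mouse and at 7.88, 16.8 and 22.1 CPM in the mice labelled LPAR2-/-. All 7 values of the mice labelled LPAR2-/- were above all 7 WT values. This was the only collagen gene whose groups did not overlap, which held for 1.77% of all genes tested. Its log2 fold change was 1.42 ± 0.22 (adjusted p = 0.00217), which is 2.68-fold with a 95% interval of 1.93 to 3.72. The values of mice 1 and 2 labelled LPAR2-/-, at 8.61 and 7.88 CPM, were close to the WT range, and the other 5 mice lay between 13.3 and 22.1 CPM. Col22a1 (chr15:71798476-72034227) kept its call in all 14 fits without 1 mouse, with adjusted p from 0.000402 to 0.00688.

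Col9a3 (chr2:180598222-180622185), which encodes a chain of type IX collagen on the surface of cartilage fibrils, was measured at 10.9, 12.7 and 13.7 CPM in WT mice and at 12.8, 16.6 and 22.0 CPM in the mice labelled LPAR2-/-. The ranges overlapped by mouse 1 labelled LPAR2-/- alone, since the other 6 mice lay above every WT mouse. The log2 fold change of 0.45 ± 0.10 passed the threshold (adjusted p = 0.0138), also without any 1 of the mice. The partner chain Col9a2 was measured at 3.08, 4.43 and 9.14 CPM and at 4.501, 8.71 and 14.4 CPM, with a log2 fold change of 0.85 ± 0.29 that did not pass (adjusted p = 0.101). WT mouse 4 had the 9.14 CPM, and Col9a2 passed without this mouse (adjusted p = 0.0465), without mouse 3 labelled LPAR2-/- (adjusted p = 0.0471) and with DESeq2 on all mice (adjusted p = 0.0281). Col16a1 (chr4:130047840-130099277), which encodes a fibril-associated chain of many connective tissues, was measured at 16.1, 18.8 and 21.2 CPM and at 19.8, 21.3 and 27.0 CPM. Its log2 fold change was 0.28 ± 0.07 (adjusted p = 0.0314). The call was lost in 7 of the 14 fits without 1 mouse (WT mouse 2, 4, 5 or 6, or mouse 1, 5 or 6 labelled LPAR2-/-), in which the adjusted p rose to at most 0.0744. Col14a1, another fibril-associated gene, gave a log2 fold change of 0.55 ± 0.24 (adjusted p = 0.176).

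**Figure D3:**
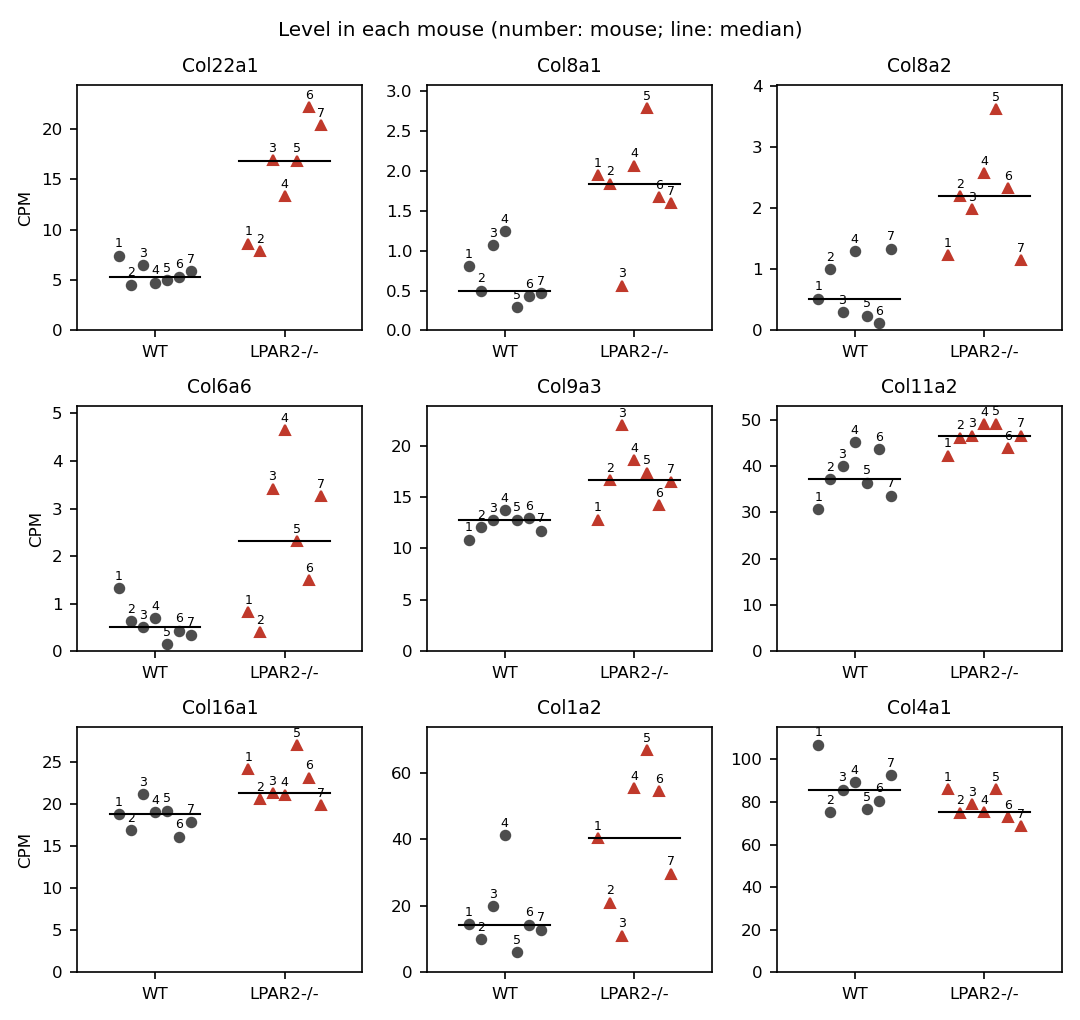
Level in CPM of the 7 collagen genes called higher and of Col1a2 and Col4a1 in each WT mouse (circles) and each mouse labelled LPAR2-/- (triangles), numbered by mouse, with the median as a line. For Col22a1 the lowest of the mice labelled LPAR2-/- (7.88 CPM) lies above the highest WT mouse (7.42 CPM), and in the other panels the groups overlap.

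In the fibrillar class, 1 of 10 tested genes was higher. Col11a2 (chr17:34039437-34066242), which encodes a chain of type XI collagen, was the most abundant fibrillar gene, with 21.1 ± 3.0 TPM in WT mice and 25.7 ± 1.6 TPM in the mice labelled LPAR2-/-. On the CPM scale its lowest, median and highest values were 30.7, 37.3 and 45.2 in WT mice and 42.3, 46.6 and 49.2 in the mice labelled LPAR2-/-. WT mice 4 and 6 reached into the range of the mice labelled LPAR2-/-. The log2 fold change was 0.28 ± 0.07 (adjusted p = 0.0304), and the call was lost in 6 of the 14 fits without 1 mouse (WT mouse 2, 5 or 7, or mouse 2, 4 or 5 labelled LPAR2-/-), with adjusted p of at most 0.0660. The other chain of type XI, Col11a1, gave a log2 fold change of -0.33 ± 0.25 (adjusted p = 0.472). Its levels were 4.77, 9.82 and 11.4 CPM in WT mice and 3.13, 8.39 and 10.7 CPM in the mice labelled LPAR2-/-.

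Type I and type III collagen, the main fibril formers of connective tissue, had log2 fold changes above 1 that did not pass the threshold. Col1a2 was measured at 6.16, 14.3 and 41.1 CPM in WT mice and at 11.04, 40.4 and 66.6 CPM in the mice labelled LPAR2-/-. WT mouse 4 was higher than 4 of the mice labelled LPAR2-/-, and mouse 3 labelled LPAR2-/- was below the WT median. The log2 fold change was 1.23 ± 0.43 (adjusted p = 0.111). Col1a1, which encodes the other chain of type I, was measured at 4.25, 8.12 and 22.9 CPM and at 6.88, 21.1 and 30.2 CPM (log2 fold change 1.09 ± 0.39, adjusted p = 0.112). Col3a1, the type III gene of vessel walls and meninges, was measured at 2.05, 4.34 and 12.8 CPM and at 4.33, 14.1 and 19.98 CPM (log2 fold change 1.23 ± 0.44, adjusted p = 0.117). Without WT mouse 4 all of them passed, with adjusted p = 0.0368 for Col1a2, 0.0328 for Col1a1 and 0.0445 for Col3a1. Col1a1 passed without mouse 3 labelled LPAR2-/- too (adjusted p = 0.0486). Without mice 4 and 5 labelled LPAR2-/- the log2 fold changes were 0.88 for Col1a2 (adjusted p = 0.310), 0.84 for Col1a1 (adjusted p = 0.292) and 0.87 for Col3a1 (adjusted p = 0.330).

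The remaining 5 tested fibrillar genes did not pass either. Col2a1, the main collagen gene of cartilage, was measured at 1.27, 1.51 and 1.95 CPM in WT mice and at 1.59, 2.09 and 2.75 CPM in the mice labelled LPAR2-/-, and its log2 fold change of 0.50 ± 0.15 lay just outside the threshold (adjusted p = 0.0522). It passed with DESeq2 (adjusted p = 0.0498), with upper quartile normalization (adjusted p = 0.0441), with a minimum of 10 counts per library (adjusted p = 0.0460), without WT mouse 4 (adjusted p = 0.0494) and without mouse 2 labelled LPAR2-/- (adjusted p = 0.0302). The type V genes, whose product limits the diameter of fibrils, had log2 fold changes of 0.08 ± 0.15 for Col5a1, 0.17 ± 0.22 for Col5a2 and 0.18 ± 0.13 for Col5a3. Col27a1 had a log2 fold change of 0.15 ± 0.10. Their adjusted p ranged from 0.405 to 0.791.

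None of the 4 tested basement membrane genes passed the threshold in edgeR or DESeq2, and at an unadjusted p under 0.05 there was 1 lower gene, Col4a1. Col4a1 (chr8:11198423-11312826) and Col4a2 (chr8:11312829-11449287) encode the chains of the widespread form of type IV collagen, and lie 58.6 and 58.4 Mb from Lpar2 on the same chromosome. Col4a1 was measured at 75.4, 85.7 and 107 CPM in WT mice and at 68.7, 75.3 and 86.1 CPM in the mice labelled LPAR2-/-, with a log2 fold change of -0.16 ± 0.07 (95% interval -0.32 to -0.0035, adjusted p = 0.212). Col4a2 was measured at 105 to 149.5 CPM and at 95.9 to 126 CPM, with a log2 fold change of -0.11 ± 0.09 (adjusted p = 0.513). Col4a5 and Col4a6 are neighbours on the X chromosome. Their log2 fold changes were 0.39 ± 0.22 (adjusted p = 0.326) and -0.02 ± 0.41 (adjusted p = 0.984). Mouse 1 labelled LPAR2-/- had 3 counts of Col4a6 (0.154 CPM), while the other mice labelled LPAR2-/- had between 1.34 and 3.31 CPM.

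In the class of beaded filaments 1 of 6 genes was higher. Col6a6 (chr9:105689417-105828085) encodes an alternative chain of type VI collagen. It was measured at 0.147, 0.508 and 1.32 CPM (3, 10 and 28 counts) in WT mice and at 0.410, 2.31 and 4.65 CPM (8, 44 and 108 counts) in the mice labelled LPAR2-/-. WT mouse 1 lay above mice 1 and 2 labelled LPAR2-/-, and the other 5 mice labelled LPAR2-/- lay above every WT mouse. The log2 fold change of 1.98 ± 0.50 had the widest interval of the called genes (3.93-fold, 95% interval 1.88 to 8.23, adjusted p = 0.0289). The call was lost in 6 of the 14 fits without 1 mouse (WT mouse 2, 3, 4, 5 or 6, or mouse 4 labelled LPAR2-/-), with adjusted p of at most 0.0610. The call of Col6a6 was also lost with limma on the deposited normalized values (adjusted p = 0.065). Col6a3 gave a log2 fold change of 1.13 ± 0.46 (adjusted p = 0.164) that rested on mouse 3 labelled LPAR2-/-. This mouse had 29.6 CPM, against 3.16 to 6.73 CPM in the other 6, and without it the log2 fold change was 0.35 (adjusted p = 0.186). The abundant Col6a1 gave a log2 fold change of -0.14 ± 0.37 (adjusted p = 0.870). Without mice 4 and 5 labelled LPAR2-/- its value was -0.73 (adjusted p = 0.225).

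The multiplexin Col18a1, whose C-terminal fragment is endostatin, was measured at 4.69, 7.31 and 10.99 CPM in WT mice and at 6.54, 11.1 and 13.4 CPM in the mice labelled LPAR2-/-. Its log2 fold change of 0.60 ± 0.20 did not pass (adjusted p = 0.0864). It passed with DESeq2 (adjusted p = 0.0292), without WT mouse 4 (adjusted p = 0.0312) and without mouse 3 labelled LPAR2-/- (adjusted p = 0.0348). Col7a1, which belongs to none of these classes, had a log2 fold change of 0.33 ± 0.10 just outside the threshold (adjusted p = 0.0511). Col7a1 passed with DESeq2, with DESeq2 size factors in edgeR, with upper quartile normalization, and without mouse 1 or mouse 2 labelled LPAR2-/-. No transmembrane collagen passed the threshold in edgeR or DESeq2 (0 of 3 at an unadjusted p under 0.05), and Col25a1 gave a log2 fold change of 0.08 ± 0.08 (adjusted p = 0.558).

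**Figure D4:**
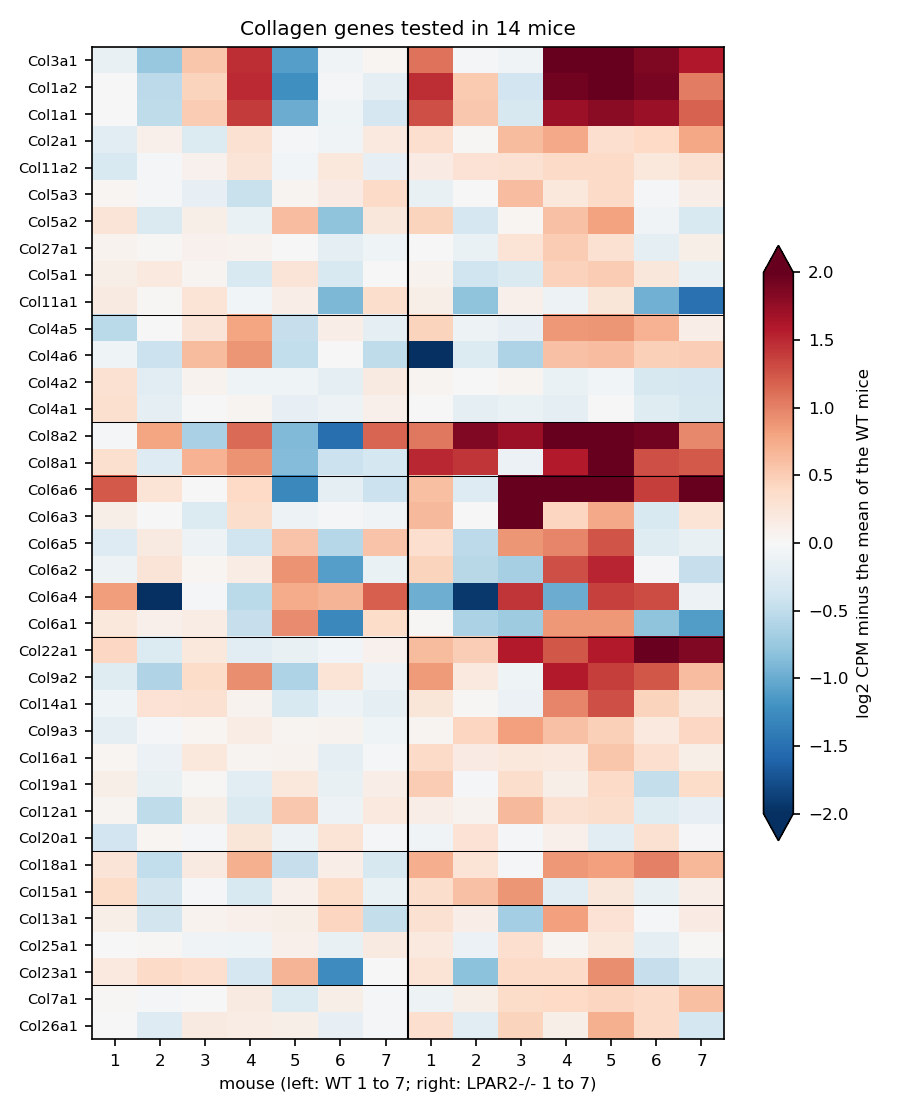
Log2 CPM of the 37 tested collagen genes (rows, by class and then by fold change) in each mouse (columns), as the difference from the mean of the 7 WT mice, with colours ending at -2 and 2. Col1a1, Col1a2 and Col3a1 are more than 1 above the WT mean in WT mouse 4 and in mice 1, 4, 5, 6 and 7 labelled LPAR2-/-, while Col22a1 is above the WT mean in all 7 mice labelled LPAR2-/-.

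The plot of all tested collagen genes by mouse shows that the type I and III genes varied together within each genotype. Markers of other cells were therefore measured beside them, from lists without any collagen gene. The 16 markers of meningeal fibroblasts had a mean log2 CPM of 2.48 ± 0.70 (SD, n = 7) in WT mice and 3.37 ± 0.88 in the mice labelled LPAR2-/- (exact two-sided permutation test, p = 0.0606, 0.176 adjusted over 8 lists). Their summed level ranged from 133 to 428 CPM in WT mice and from 157 to 584 CPM in the mice labelled LPAR2-/-, and 15 of 16 were above 0 in every mouse. WT mouse 4, at 3.78, was the highest WT mouse, and mouse 3 labelled LPAR2-/-, at 1.96, was lower than all but 1 WT mouse. Mice 4 and 5 labelled LPAR2-/- were the highest, at 4.13 and 4.44. Of the 15 tested markers only Lum was called. Vascular smooth muscle markers (6 of 6 detected in all mice) differed by 0.85 (summed level 29.5 to 141 CPM and 40.0 to 190.9 CPM, p = 0.0659, adjusted p = 0.176, exact permutation test). Endothelial (10 of 10 detected in all mice, 247 to 379 and 276 to 389 CPM) and pericyte markers (8 of 8, 133 to 221 and 164 to 245 CPM) each differed by 0.09 (p = 0.448 and 0.372, exact permutation test).

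Choroid plexus markers were at a mean log2 CPM of -0.60 ± 0.19 in WT mice and 0.07 ± 0.99 in the mice labelled LPAR2-/- (exact permutation test, p = 0.0659, adjusted p = 0.176). Their summed level ranged from 31.6 to 38.6 CPM and from 30.1 to 303 CPM. Of this sum the gene Kl alone took 23.9 to 29.1 CPM in WT mice and 23.1 to 35.1 CPM in the mice labelled LPAR2-/-. Of the 12 markers, 9 were above 0 in every mouse, and only 6 had enough counts to be tested. The highest level of the list belonged to mouse 2 labelled LPAR2-/-, with a mean log2 CPM of 2.10 and 242 CPM of transthyretin (Ttr). Mice 3 and 4 labelled LPAR2-/-, at 0.09 and 0.48, lay above every WT mouse as well. Markers of CA pyramidal neurons differed by -0.28 (p = 0.172) and of dentate granule neurons by 0.09 (p = 0.368, exact permutation tests). In mice 6 and 7 labelled LPAR2-/- CA markers (mean log2 CPM 3.47 and 3.78) lay below every WT mouse, and dentate markers (6.87 and 6.91) above. Markers of thalamus, which borders the hippocampus, differed by -0.03 (p = 0.695, exact permutation test). All 7 were detected in all mice (174 to 230.0 CPM and 164 to 240.2 CPM). Calb2 (mean 106 CPM in WT mice) and Ntng1 (47.4 CPM) led this sum, beside 3.28 CPM for Slc17a6 and 6.34 CPM for Tcf7l2. Whether these reads came from thalamus was not tested.

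**Figure D5:**
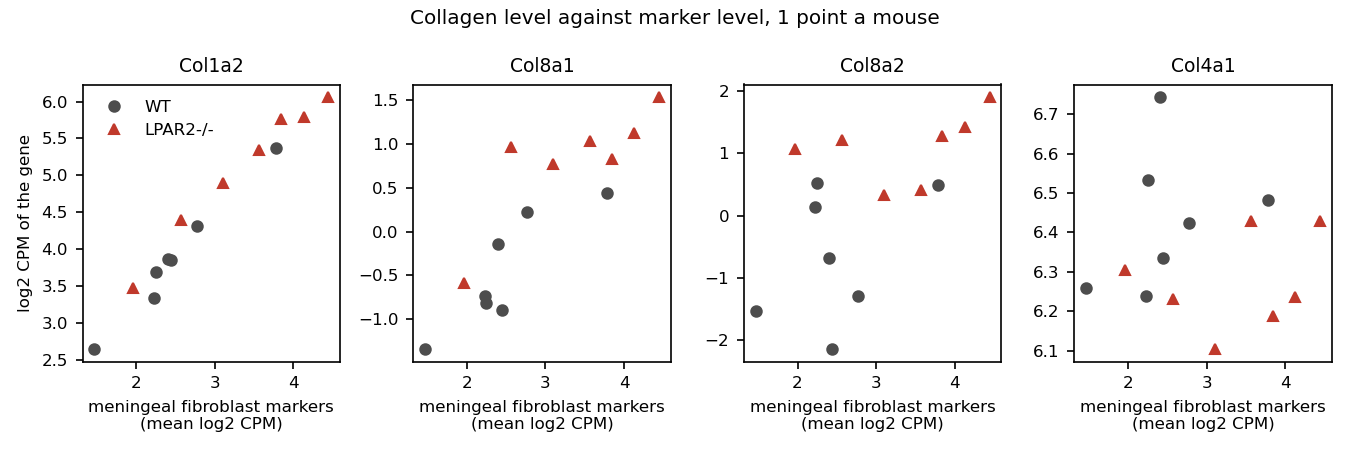
Log2 CPM of Col1a2, Col8a1, Col8a2 and Col4a1 against the mean log2 CPM of the 16 meningeal fibroblast markers, 1 point per mouse (circles WT, triangles labelled LPAR2-/-). Col1a2 follows the markers closely in both genotypes (Pearson's r = 0.99 in each), whereas the points of Col8a2 (r = 0.40 and 0.42) and Col4a1 (r = 0.33 and 0.26) scatter.

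Within each genotype the level of 4 collagen genes was set against the marker levels, which gave 16 relations over 7 mice each. Col1a2 followed the meningeal fibroblast markers in WT mice (Pearson's r = 0.99, exact permutation p = 0.000397, adjusted p = 0.00318; Spearman's rho = 0.96, exact permutation p = 0.00278, adjusted p = 0.0222) and in the mice labelled LPAR2-/- (r = 0.99, exact permutation p = 0.000198, adjusted p = 0.00317; rho = 1, p = 0.000397, adjusted p = 0.00635). Without the 2 mice farthest from the median marker level r was 0.94 and 0.98. Col8a1 had r = 0.88 in WT mice (exact permutation p = 0.00238, adjusted p = 0.0127) and r = 0.83 in the mice labelled LPAR2-/- (exact permutation p = 0.00794, adjusted p = 0.0318). Without the 2 farthest mice r was 0.79 and 0.84, and Spearman's rho of 0.75 and 0.82 did not pass the correction (exact permutation p = 0.0663 and 0.0341, adjusted p = 0.265 and 0.182). For Col8a2 r was 0.40 and 0.42 (exact permutation p = 0.400 and 0.350, rho 0.07 and 0.71, exact permutation p = 0.906 and 0.0881), and moved to -0.65 and 0.95 without the 2 farthest mice. Col4a1 had r = 0.33 and 0.26 (exact permutation p = 0.468 and 0.575, rho 0.43 and 0.32, exact permutation p = 0.354 and 0.498). No relation with the choroid plexus markers passed the correction (8 relations, lowest adjusted p 0.255 by exact permutation). The genes and markers of a mouse come from the same library, and the part of the meningeal, smooth muscle or choroid plexus markers in the collagen differences between genotypes was not tested.

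The collagen genes were recomputed without mice with high marker levels, a choice made after the data had been seen. Mice were left out of 1 genotype only, which by itself moves the difference of any gene that follows the markers. When WT mouse 4 was left out instead, the WT mouse with the highest meningeal marker level, 11 collagen genes were called higher, beside 361 of all genes (2.41%). Without mice 4 and 5 labelled LPAR2-/-, which had the highest meningeal marker level, Col22a1 was the 1 collagen gene called (log2 fold change 1.43, adjusted p = 0.0100), and 284 of all genes were called higher (1.90%). Col8a1 then gave a log2 fold change of 1.12 (adjusted p = 0.0955), Col8a2 of 1.36 (adjusted p = 0.0923), Col6a6 of 1.65 (adjusted p = 0.101) and Col9a3 of 0.41 (adjusted p = 0.0595). The values for Col11a2 and Col16a1 were 0.25 (adjusted p = 0.113) and 0.24 (adjusted p = 0.0821). The fit rested on 5 such mice. Without mice 2, 3 and 4 labelled LPAR2-/-, whose choroid plexus marker level was above every WT mouse, Col22a1 (1.59, adjusted p = 0.00226), Col8a1 (1.53, adjusted p = 0.0170), Col6a6 (1.70, adjusted p = 0.0462) and Col16a1 (0.35, adjusted p = 0.0376) were called, while Col8a2 (1.59, adjusted p = 0.0919), Col9a3 (0.29, adjusted p = 0.0786) and Col11a2 (0.26, adjusted p = 0.128) were not. In that fit 340 of all genes were called higher (2.26%).

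The genes that modify, process, bind, sense or break down collagen are a list of 72, of which 65 were tested. Higher levels in the mice labelled LPAR2-/- were found for 6 of these and lower levels for 2, beside 3.32% and 3.46% of all genes, and 43 of 65 had a log2 fold change above 0 (median 0.13). At an unadjusted p under 0.05 in edgeR, 20 of the 65 were higher and 6 lower, beside 11.3% and 11.1% of all genes. The groups did not overlap for 4 of the 65 (Colgalt1, Nid2, Pxdn and Adgrg1), beside 1.77% of all genes tested. Among the genes of chain modification and folding, 2 of 19 were higher and 1 was lower. Colgalt1, which adds galactose to the hydroxylysine of collagen chains, was measured at 82.0, 93.5 and 100.04 CPM in WT mice and at 101, 129.9 and 146 CPM in the mice labelled LPAR2-/-, without overlap (log2 fold change 0.41 ± 0.07, adjusted p = 0.00256). Colgalt1 lies 1.79 Mb from Lpar2. Plod2, a lysyl hydroxylase needed for cross-links, gave a log2 fold change of 0.33 ± 0.08 (adjusted p = 0.0208). P4ha1, the catalytic subunit of prolyl 4-hydroxylase, which stabilises the helix, was measured at 71.9, 97.3 and 111 CPM and at 62.2, 65.8 and 78.5 CPM (log2 fold change -0.41 ± 0.09, adjusted p = 0.0206). Ppib, the most abundant gene of this role, had a log2 fold change of 0.01 ± 0.04.

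In the processing of propeptides 1 of 7 tested genes was higher. Adamts3, which removes N-terminal propeptides, gave a log2 fold change of 0.31 ± 0.07 (adjusted p = 0.0176), while Bmp1, which removes the C-terminal ones, had -0.03 ± 0.08. Pcolce had 0.87 ± 0.34 but did not pass (adjusted p = 0.139). In this role 4 genes had a log2 fold change above 0 and 3 below. None of the 4 tested lysyl oxidases was called by edgeR or DESeq2 (0 at an unadjusted p under 0.05), and Loxl3, the most abundant, had 0.10 ± 0.07. The log2 fold changes were 0.05 ± 0.15 for Loxl1, 0.88 ± 0.45 for Loxl2 and 0.70 ± 0.52 for Lox. Loxl2 and Lox were scarce, with means of 0.670 and 0.760 CPM in WT mice. Among the proteoglycans that bind fibrils 1 of 8 was higher, namely Lum, which was measured at 5.71, 7.37 and 9.34 CPM in WT mice and at 8.27, 10.6 and 13.4 CPM in the mice labelled LPAR2-/- (log2 fold change 0.54 ± 0.12, adjusted p = 0.0132). Fmod (1.64 ± 0.64, adjusted p = 0.149), Omd (1.42 ± 0.69, adjusted p = 0.241) and Bgn (0.74 ± 0.30, adjusted p = 0.158) had larger changes that did not pass. All of them were called without WT mouse 4. Of the 8 proteoglycans, 7 had a log2 fold change above 0, and Dcn had -0.04 ± 0.56. Lum, Fmod and Dcn are at the same time among the markers of meningeal fibroblasts used here. Ogn, which had the highest mean level of the proteoglycans over all 14 mice (37.2 TPM, beside 35.9 TPM for Dcn, which led in WT mice with 36.4 against 30.9 TPM) and is another of these markers, had 0.49 ± 0.20 (adjusted p = 0.159).

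Of 12 basement membrane partners 1 was higher and 1 lower, beside 3.32% and 3.46% of all genes. Each was without overlap between the genotypes, which held for 1.77% of all genes tested. Nid2, which links laminin to type IV collagen, was measured at 3.84, 5.25 and 6.00 CPM in WT mice and at 6.14, 6.65 and 9.73 CPM in the mice labelled LPAR2-/- (log2 fold change 0.52 ± 0.13, adjusted p = 0.0229). Pxdn, the peroxidase that cross-links type IV collagen, was measured at 147, 169.5 and 188 CPM and at 97.0, 126 and 144 CPM (log2 fold change -0.51 ± 0.09, adjusted p = 0.00321). Sparc, the most abundant partner, had 0.02 ± 0.11. None of the 8 tested receptors passed the threshold in the edgeR fit of all 14 mice with TMM normalization and no block. At an unadjusted p under 0.05 there was 1, Adgrg1. Adgrg1, a receptor of type III collagen in the developing brain, was measured at 84.9, 85.5 and 95.3 CPM and at 56.7, 77.6 and 84.1 CPM, without overlap. Its log2 fold change was -0.24 ± 0.07 (adjusted p = 0.0509), and it was lower with DESeq2. In edgeR it was called lower with DESeq2 size factors (adjusted p = 0.0489), with the mouse number as a block (adjusted p = 0.0488) and in 3 of the 14 fits without 1 mouse. Among 7 tested genes of collagen breakdown Mrc2, an uptake receptor for collagen fragments, was higher, with 4.35, 7.93 and 12.7 CPM in WT mice and 8.61, 14.2 and 30.4 CPM in the mice labelled LPAR2-/- (log2 fold change 1.03 ± 0.29, adjusted p = 0.0470). Timp2, the most abundant gene of this role, had -0.19 ± 0.20.

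Each mouse was left out of the pathway comparison in turn. Colgalt1, Plod2, P4ha1, Adamts3, Lum and Pxdn kept their calls in all 14 fits. Without mice 4 and 5 labelled LPAR2-/-, however, 4 of the 8 called genes were not called. Their log2 fold changes were then -0.37 for P4ha1 (adjusted p = 0.0812), 0.47 for Lum (adjusted p = 0.0609), 0.38 for Nid2 (adjusted p = 0.0918) and 0.61 for Mrc2 (adjusted p = 0.145). Without mice 2, 3 and 4, P4ha1 was not called either, at -0.37 (adjusted p = 0.108). Nid2 lost its call without WT mouse 2 or 5, where the adjusted p rose to at most 0.0554. Mrc2 lost it in 10 of the 14 fits (without any WT mouse but mouse 4, or without mouse 1, 4, 5 or 6 labelled LPAR2-/-), with adjusted p of at most 0.102. Mrc2 was also not called with no filter on low counts (edgeR, adjusted p = 0.0732) or with limma on the deposited normalized values (adjusted p = 0.0604).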

How the data were processed

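Total RNA of the hippocampus was depleted of ribosomal RNA and sequenced, with 1 library per mouse. Per the labels and the file headers, the authors removed adapters (cutadapt 1.18), mapped the reads to mm10 (STAR) and took exon counts per gene with featureCounts 1.6.3, set to reverse-stranded libraries and to uniquely assigned reads. This can lower the counts of genes with similar copies. The deposited counts per gene carry no normalization and were the data used here. A deposited table of normalized values (16510 entries) holds counts divided by DESeq2 1.22.2 size factors and by length, since 99.9% of the 217096 values of at least 0.1 that were compared lay within 2% of this quotient, and served as an alternative. Its log2 columns were not used.

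The tools were edgeR 4.0.16, DESeq2 1.42.0 and limma 3.58.1 in R 4.3.3. Counts were normalized by TMM and filtered with filterByExpr (14897 of 24421 genes), and the 7 mice labelled LPAR2-/- were compared with 7 WT mice with edgeR's robust quasi-likelihood test, with no covariate. P-values were adjusted over all genes tested (Benjamini-Hochberg), and genes under 0.05 are called. Values after ± are standard errors for log2 fold changes and standard deviations for levels. Log2 CPM have a prior count of 2. A count of 0 allows up to 3 counts, between 0.129 and 0.192 CPM per mouse, for counting error only. TPM were computed from counts and counted length. Marker lists were tested by two-sided exact permutation of the 14 mice (3432 arrangements, smallest possible p 0.000583). Named were the tested fibrillar, basement membrane and network genes, other collagen genes called or with a log2 fold change of at least 0.5 in size, the 5 most abundant collagen genes, pathway genes called, the most abundant gene of each pathway role, and Lpar2. Others were named after their values had been seen. The collagen genes, lists and rules were chosen with earlier results of these data known. Alternatives were DESeq2, its size factors, the upper quartile, no filter, a minimum of 10 counts per library, limma on the normalized values with a pseudocount of 1, a prior count of 0.5 for marker levels, CPM in place of TPM for the order of levels, the mouse number as a block and each mouse left out. Among 42 pairs of libraries of a genotype, none were copies (chi-square at least 3.35 per degree of freedom). The mice are separate animals. Procedures were tested on simulated data.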

Additional observations from a re-analysis of the deposited data

Results flagged for a closer look

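The level of each tested collagen gene was examined in each genotype for a mouse far from the other 6, and 4 of 74 groups held one. At 1 in 20 groups chance gives 3.7. Col1a2 and Col1a1 were far higher in WT mouse 4 than in the other WT mice, at 41.1 and 22.9 CPM. This mouse had the highest level of meningeal fibroblast markers among WT mice, and over the 7 WT mice Col1a2 followed these markers (Pearson's r = 0.99, exact permutation p = 0.000397, Spearman's rho = 0.96, exact permutation p = 0.00278, and r = 0.94 without the 2 mice farthest from the median marker level). Col6a3 was far higher in mouse 3 labelled LPAR2-/- than in the other mice of this label, at 29.6 CPM. Col11a1 was far lower in WT mouse 6 than in the other WT mice, at 4.77 CPM.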

How the results depend on the processing

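With DESeq2, 674 of all 20115 genes were called higher (3.35%), though only 16259 of the 20115 had an adjusted p. The 7 collagen genes called higher were 11 with DESeq2 and 3 with a replicate block by mouse number. They were between 3 and 11 when 1 mouse was left out (3 without WT mouse 2, 4 without WT mouse 5, 11 without WT mouse 4). They were 1 without mice 4 and 5 labelled LPAR2-/- and 4 without mice 2, 3 and 4 labelled LPAR2-/-, both chosen after seeing the data. Col22a1, Col9a3 and Col11a2 kept their calls under the block. Col8a1 (adjusted p = 0.0809), Col8a2 (0.0701), Col6a6 (0.0992) and Col16a1 (0.0506) lost theirs. The labels give no pairing of mice of the same number. After removal of genotype means their correlations ranged from -0.33 to 0.31, 3 of 7 were above 0.1, and 5 of 14 mice matched best with their own number. Mice 6 and 7 had the fewest reads counted on genes in both genotypes. Whether mice of the same number shared a step of processing was not tested. No alternative called a collagen gene lower. Pathway genes called higher (6) and lower (2) were 3 and 4 with the block (Lum 0.0534, Nid2 0.0645 and Mrc2 0.109, as adjusted p, lost their calls), 3 and 1 without mice 4 and 5, 6 and 1 without mice 2, 3 and 4, and from 4 to 11 and from 2 to 3 without 1 mouse. All genes called higher (494) and lower (515) were 314 and 272 with the block, 284 and 207 without mice 4 and 5, 340 and 314 without mice 2, 3 and 4, and 275 to 660 and 292 to 725 without 1 mouse. The cause of these shifts was not tested. Values near 0 changed sign. Without mice 4 and 5 the log2 fold changes were -0.11 for Col5a1, -0.075 for Col5a2, 0.021 for Bmp1 and -0.10 for Sparc, and without mice 2, 3 and 4 they were 0.040 for Col4a6, 0.0099 for Bmp1 and -0.016 for Sparc. Without 1 mouse they ranged from -0.36 to 0.055 for Col6a1, -0.14 to 0.19 for Col4a6, -0.0063 to 0.029 for Ppib, -0.075 to 0.015 for Bmp1 and -0.030 to 0.082 for Sparc, and the difference in thalamic markers from -0.080 to 0.0041. Other marker differences kept their sign without 1 mouse. They ranged from 0.33 to 0.79 for choroid plexus, -0.37 to -0.17 for CA pyramidal neurons and 0.046 to 0.13 for dentate granule neurons. For endothelium the range was 0.034 to 0.14, and for pericytes 0.047 to 0.14. Col8a1 and Col8a2 had a median of 11 counts in WT mice, with coefficients of variation of 52.3% and 74.5%. The part of counting error in this spread was not tested.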
